A study of Mus musculus with 8 samples.

Results

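Emg1, Nop14, Noc4l and Rps19 are 4 genes of 1 step of small ribosomal subunit assembly, chosen by name from a knockdown of Emg1 in N2a cells, a mouse neuroblastoma line. All 4 are among the 16279 genes of the input RNA table and among the 12807 of these with an adjusted p. None of the 4 names occurs among the 2114 differential peaks of N6-methyladenosine (m6A), the methylated adenosine that marks many mRNAs. Cells received siRNA to Emg1 or control siRNA and were harvested 48 h later, and all were otherwise cultured alike. The sequence of the siRNA, and the number of siRNAs used, are not stated in the labels. There were 4 groups of 2 libraries each: poly(A) RNA precipitated with an m6A antibody after Emg1 knockdown and after control, and input RNA after Emg1 knockdown and after control. Whether the paired libraries of a group derive from distinct cultures is not labelled. The p-values therefore measure the spread between these libraries, which may be technical.

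Emg1 encodes the enzyme that methylates a pseudouridine of 18S ribosomal RNA, 1 of the steps that turn this base into a hypermodified nucleotide. In yeast its counterpart Nep1 works in the nucleolus with Nop14 and Noc4, proteins of the small subunit processome that assembles on the rRNA precursor, and it also helps the ribosomal protein Rps19 to join the head of the subunit. A mutation of human EMG1 causes Bowen-Conradi syndrome, and RPS19 is the gene most often mutated in Diamond-Blackfan anemia. The study asked how EMG1 influences m6A in mRNA. Which of these partners changed in RNA level when Emg1 was reduced is the question that the input table answers for these 4 genes.

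Both tables hold fitted values and none per library, so the spread between libraries is known only through the standard error (SE) and adjusted p of the authors' DESeq2 fit. The mean normalized counts summed to 36901900 over all genes, of which the ribosomal RNA precursor Rn45s made up 22.0%. The labelled cell type was checked against markers. The sympathoadrenal genes Hand2 and Phox2a had mean normalized counts of 10441 and 3005 per the authors' deposited table. The 3 matched leukocyte markers had means of 3.96 to 15.4, and the 2 epithelial ones 7.81 and 45.7. Among the fibroblast, endothelial and glial markers Pdgfra, Pecam1 and Mbp reached 1357, 407 and 688. The neuronal marker Nefm was near 0 with a mean of 1.32 per the authors' deposited table.

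Emg1 and Rps19 lost most of their RNA, while Nop14 and Noc4l gained a little. In bulk RNA, fewer cells that express a gene and less RNA per cell cannot be told apart. The file names no direction for its fold changes. Emg1, the target of the knockdown, has a negative value, and all changes are read as knockdown over control. Of the 12807 genes with an adjusted p, 32.6% passed at an adjusted p under 0.05, with 17.1% rising and 15.5% falling. All 4 members passed, 2 in each direction. A level in each condition was computed from the mean and the fold change, on the assumption that the mean is over 2 knockdown and 2 control libraries with equal weight.

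For Emg1 this gave 613 normalized counts in knockdown cells and 2029 in control cells. Its log2 fold change was -1.73 ± 0.11 (SE) per the authors' deposited table, with an adjusted p of 3.37e-54. The RNA in knockdown cells was therefore 30.2% of that in control cells, with a 95% interval of 26.1 to 35.0% from the SE. Of the 11134 genes with an adjusted p and a mean of at least 100, 7 had a lower value than Emg1, which is 8th from the lowest. Without the minimum on the mean it is 22nd of 12807.

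Rps19, a structural protein of the subunit head, came second among the members. Its implied level was 3120 normalized counts in knockdown cells and 8098 in control cells. The log2 fold change was -1.38 ± 0.07 (SE) per the authors' deposited table, with an adjusted p of 1.04e-88. Knockdown cells held 38.5% of the control level (95% interval 35.1 to 42.2%). By size of change Rps19 was 29th from the lowest among the 11134 genes with a mean of at least 100. By adjusted p it was 4th of all 12807 genes and Emg1 was 14th. The changes of Emg1 and Rps19 differed by -0.35 on the log2 scale, Emg1 minus Rps19, with a 95% interval of -0.60 to -0.10 that treats their errors as independent. Emg1 thus fell more than Rps19 by a small margin.

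Nop14, a processome protein that forms a complex with Noc4 in yeast, had an implied 3748 normalized counts in knockdown cells and 3196 in control cells. Its log2 fold change was 0.23 ± 0.08 (SE) per the authors' deposited table, with an adjusted p of 0.00977. Knockdown cells held 117% of the control level (95% interval 106 to 130%). Noc4l, the mouse counterpart of Noc4, had 1700 implied normalized counts in knockdown cells and 1406 in control cells. The log2 fold change of Noc4l was 0.27 ± 0.09 (SE) per the authors' deposited table, with an adjusted p of 0.0143, and its level was 121% of control (106 to 137%).

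The rises of both partners were small. The 2 changes differed by -0.04, Nop14 minus Noc4l, with a 95% interval of -0.28 to 0.19, so they could not be told apart at this precision. Among the 2187 genes that rose, 1880 had a change at least as large as that of Nop14 and 1614 at least as large as that of Noc4l, each gene itself counted. When the test asked for an absolute log2 change over 0.25 rather than over 0, neither Nop14 nor Noc4l passed (DESeq2 estimates, adjusted p of 1 for each), while Emg1 and Rps19 did. The estimate of Nop14, 0.23, is itself under 0.25 and could not pass, and that of Noc4l, 0.27, is barely over it.

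**Figure D1:**
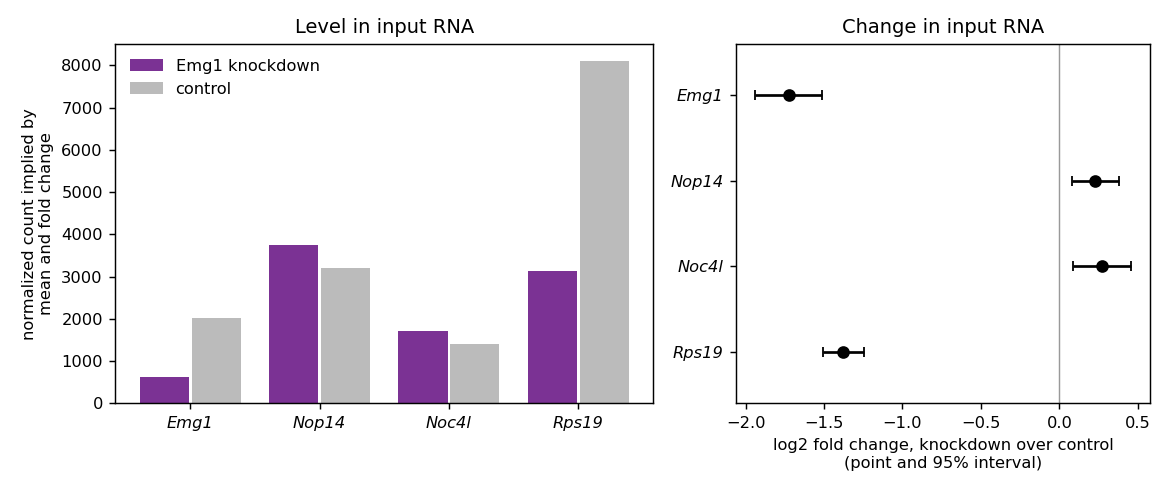
Left, the normalized count of each gene in Emg1 knockdown cells (purple) and control cells (grey), implied by the deposited mean and fold change of the input table, with no value per library and counts not scaled for transcript length, so that only the 2 bars of 1 gene can be compared. Right, the log2 fold change with its 95% interval from the SE: Emg1 at -1.73 and Rps19 at -1.38 lie far below 0, and Nop14 at 0.23 and Noc4l at 0.27 slightly above it.

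**Figure D2:**
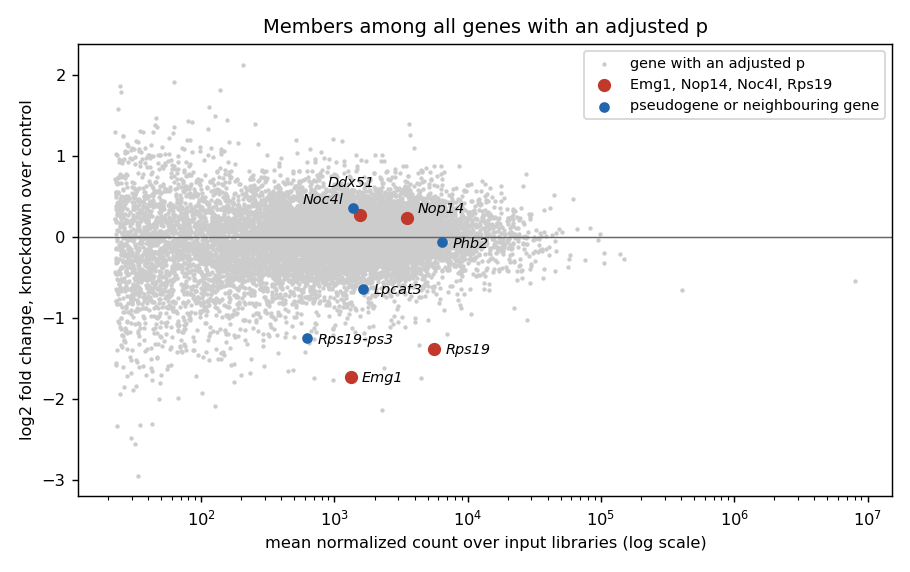
Each grey point is 1 of the 12807 genes with an adjusted p, by mean normalized count (log scale) and log2 fold change, knockdown over control. Emg1 and Rps19 (red) sit at the lower edge of the genes of like mean, Nop14 and Noc4l (red) lie inside the main body, and the pseudogene Rps19-ps3 and 3 neighbouring genes are in blue.

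The genes with the closest change to each member were taken among genes that passed with a mean within 2-fold of its own. Since there is 1 contrast only, this likeness says no more than that their fold changes are near. Next to Emg1 were Ten1, a telomere-capping protein, at -1.73 ± 0.14, Nelfe, part of the factor that pauses RNA polymerase II, at -1.76 ± 0.13, and Tmem59 at -1.62 ± 0.09 (log2, SE) per the authors' deposited table. Near Rps19 were Ero1l, an oxidase of the endoplasmic reticulum, at -1.33 ± 0.07, and Dkk3 and Tmx3 at -1.20 ± 0.06 and -1.11 ± 0.10 per the authors' deposited table. Of 1252 candidates for Rps19, the third closest already differed by 0.26 on the log2 scale. For Nop14 and Noc4l the crowd was dense, with 1789 and 1922 candidates. The closest were Timm44, Ssx2ip and Znf512b to Nop14 at 0.23 each, and Brf1, Ubp1 and Trim68 to Noc4l at 0.27 each, per the authors' deposited table.

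The DNA around the starts of the 4 genes is shown because 3 of them share it with a neighbour on the other strand, and the RNA of that neighbour serves as a comparison with the member. The stretches below are the bases between the starts of member and neighbour, or, for Rps19, the 100 bases before its annotated start and 1 after it. They are from RefSeq, build GRCm38.p6 (mm10), and are written 5′ to 3′ on the strand of the member. Emg1 and Phb2 are separated by chr6:124712187-124712288 (minus strand), Nop14 and Grk4 by chr5:34660149-34660249 (minus), and Noc4l and Ddx51 by chr5:110653383-110653431 (minus). The Rps19 stretch is chr7:24884492-24884592 (plus). Capitals mark matches to the motifs named below.
Emg1: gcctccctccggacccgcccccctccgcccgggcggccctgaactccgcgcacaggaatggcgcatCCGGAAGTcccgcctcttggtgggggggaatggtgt
Nop14: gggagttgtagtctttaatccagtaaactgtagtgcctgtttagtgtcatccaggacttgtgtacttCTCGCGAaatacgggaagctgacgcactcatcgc
Noc4l: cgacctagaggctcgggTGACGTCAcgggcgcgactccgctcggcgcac
Rps19: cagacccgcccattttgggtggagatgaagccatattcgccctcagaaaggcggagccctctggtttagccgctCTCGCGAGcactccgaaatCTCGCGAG

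Motifs were searched on both strands of 300-base promoters, 250 before and 50 after the start, 1 for each of 27025 genes, and were picked after the 4 sequences had been read. The ETS site CCGGAAGT occurs 2 times in the Emg1 promoter, once inside the stretch shown, and in 4.0% of all promoters. TGACGTCA, the cyclic AMP response element, occurs once in the Noc4l promoter and in 1.88% of all. The palindrome CTCGCGAG occurs 2 times in the Rps19 promoter, once up to its annotated start, and in 0.958% of all. The shorter CTCGCGA, which overlaps it, is found in both the Rps19 and the Nop14 promoter and in 2.03% of all promoters. CACGTG, the E-box, was in none of the 4 and in 7.24% of all. A match is a run of letters and not evidence that a factor binds there.

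Emg1 and its divergent neighbour Phb2 differed in what happened to their RNA. Phb2, a prohibitin of the inner mitochondrial membrane, starts 102 bases from Emg1. Its implied level was 6222 normalized counts in knockdown cells and 6529 in control cells, and its log2 change of -0.07 ± 0.06 (SE) per the authors' deposited table did not pass (adjusted p = 0.429). The 95% interval of -0.19 to 0.05 for Phb2 lies wholly above that of -1.94 to -1.51 for Emg1. At its other end Emg1 overlaps Lpcat3, a phospholipid acyltransferase gene of the plus strand, by 347 bases. Lpcat3 fell by 0.64 ± 0.09 per the authors' deposited table (adjusted p = 6.58e-11), to 1277 implied normalized counts in knockdown cells against 1989 in control cells. The libraries were made with a stranded kit, but no source used here states whether reads were counted by strand. Without strand, reads from the 347 shared bases could belong to either gene, and their part in the change of Lpcat3 was not tested.

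The neighbours of Noc4l and Nop14 gave another picture. Ddx51, an RNA helicase whose yeast counterpart works in ribosome assembly, starts 49 bases from Noc4l and rose by 0.35 ± 0.10 (log2, SE) per the authors' deposited table (adjusted p = 0.00155), to 1535 implied normalized counts in knockdown cells against 1202 in control cells. Both genes of that pair therefore rose by like amounts. Nop14 starts 101 bases from Grk4, a receptor kinase gene with a mean normalized count of only 31.3. Grk4 had a log2 change of -0.40 ± 0.57 per the authors' deposited table (adjusted p = 0.645), too imprecise to set against that of Nop14. Downstream of Nop14, the transporter gene Mfsd10 rose by 0.30 ± 0.11 (log2, SE) per the authors' deposited table (adjusted p = 0.0158). Dmrtc2 and Cd79a, which flank Rps19 at 6936 and 7685 bases, were barely measured, with means of 2.82 and 4.65 per the authors' deposited table and no adjusted p. Galnt9, the other neighbour of Noc4l, was not analysed here.

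**Figure D3:**
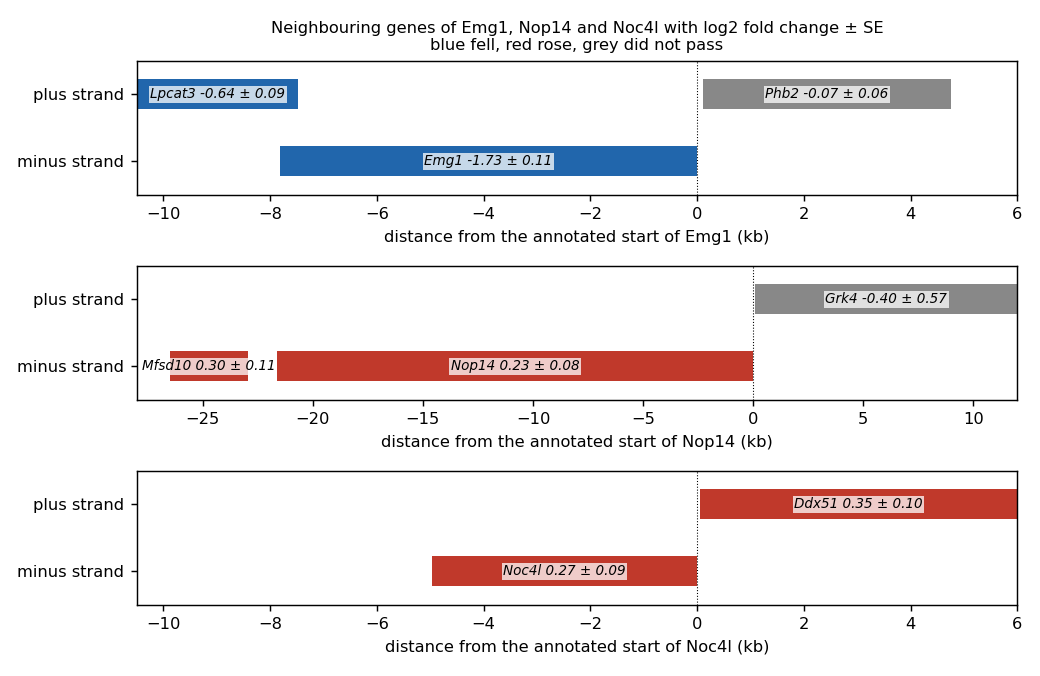
Gene spans around Emg1, Nop14 and Noc4l by strand, in kb from the annotated start of the member (dotted line), with log2 fold change ± SE from the input table and spans that run past the edge cut off. Phb2 (-0.07) starts beside Emg1 (-1.73) and did not pass, whereas Ddx51 (0.35) beside Noc4l (0.27) rose as it did.

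Rps19 had the lowest value among the ribosomal protein genes of its subunit. Of the other 32 small subunit ribosomal protein genes, 18 fell, 3 rose and 11 did not pass, with a median log2 change of -0.16, where the median of all tested genes was 0.00 and 15.5% fell. Rps19 at -1.38 was the lowest of the 33. Rps20, another head protein, was at -0.57 ± 0.06 (log2, SE) per the authors' deposited table. The interval of Rps19, -1.51 to -1.24, does not reach that value. In the list for the head of the subunit, where Rps19 sits, 9 of 15 other proteins fell and 2 rose (median -0.18). That list also held Rps2, a protein of the body, which was 1 of the 2 that rose. In the list for the body and platform, which lacked Rps2, 9 of 17 fell and 1 rose (median -0.14). The members that rose were Rps2 at 0.29 ± 0.09, Rps26 at 0.25 ± 0.06 and Rps16, a head protein, at 0.16 ± 0.05 per the authors' deposited table.

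The other ribosomal protein genes linked to Diamond-Blackfan anemia in patients moved little beside Rps19. Of 16 measured, 7 fell, 1 rose and 8 did not pass, where 15.5% of tested genes fell and 17.1% rose. The lowest was Rps28 at -0.38 ± 0.06 (log2, SE) per the authors' deposited table. Rps19bp1, which encodes a nucleolar protein that binds Rps19, had a log2 change of 0.11 ± 0.11 (adjusted p = 0.469) per the authors' deposited table and did not pass.

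A pseudogene copy of Rps19 also fell. RefSeq names 13 pseudogenes of Rps19, of which 1, Rps19-ps3 (mm10 chromosome 4, 147821777 to 147822202), is in the input table. It had 367 implied normalized counts in knockdown cells and 872 in control cells. The log2 change of Rps19-ps3 was -1.25 ± 0.17 (SE) per the authors' deposited table (adjusted p = 5.78e-12). That is 42.1% of control (95% interval 33.4 to 52.9%), an interval that holds the 38.5% of Rps19. No source used here states how reads that match several copies were assigned. The values of Rps19 and Rps19-ps3 may therefore share reads and are uncertain to that extent.

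**Figure D4:**
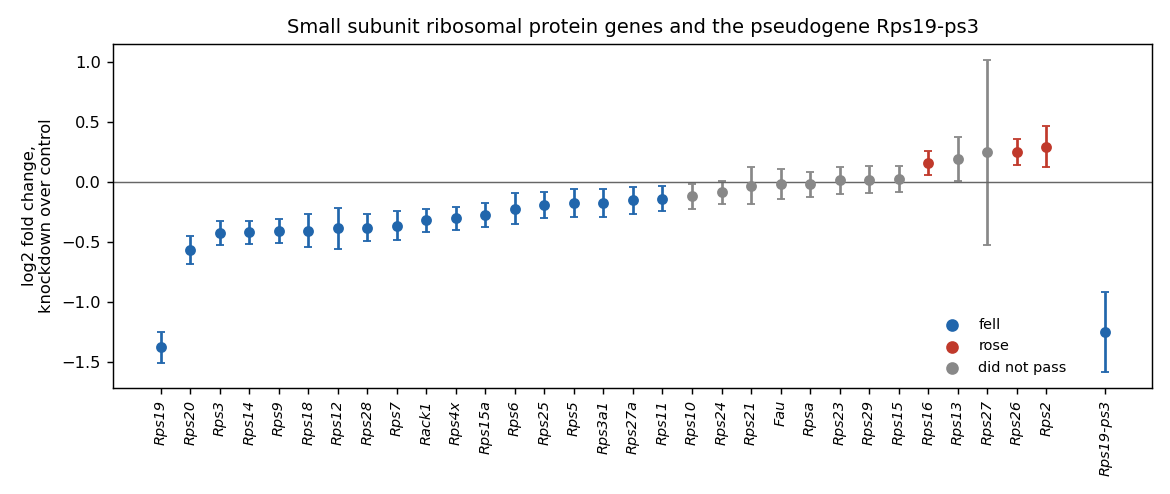
Log2 fold change with 95% interval of 31 of the 33 small subunit ribosomal protein genes, ordered from low to high, with the pseudogene Rps19-ps3 set apart at the right. Rps19 at -1.38 and Rps19-ps3 at -1.25 lie below the other genes plotted, of which the lowest is Rps20 at -0.57.

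The other proteins that make the nucleotide modified by Emg1, most of which act before it, did not follow Emg1 down, apart from 1. In this position a guide particle first makes the pseudouridine, Emg1 methylates it and Tsr3 adds an aminocarboxypropyl group. Of 5 proteins, 3 rose, 1 fell and 1 did not pass, where 17.1% of tested genes rose and 15.5% fell. Dkc1, the pseudouridine synthase, rose by 0.33 ± 0.08, and its particle partners Nhp2 and Gar1 by 0.27 ± 0.07 and 0.25 ± 0.09 (log2, SE) per the authors' deposited table. Nop10, the smallest core protein of the particle, fell by 0.35 ± 0.10 (adjusted p = 0.00255) per the authors' deposited table. Tsr3 was at 0.27 ± 0.11 and did not pass (adjusted p = 0.0547) per the authors' deposited table.

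In a list of 6 other enzymes that modify 18S rRNA and their partner proteins, 2 rose and none of the 6 fell. Of all tested genes, 17.1% rose and 15.5% fell. The cytidine acetyltransferase gene Nat10 rose by 0.50 ± 0.08, and Bud23, a guanosine methyltransferase, rose by 0.26 ± 0.09 per the authors' deposited table. Mettl5, which sets an m6A in 18S rRNA itself, was at 0.23 ± 0.15 (adjusted p = 0.236), and its partner Trmt112 at 0.02 ± 0.11 (adjusted p = 0.899) per the authors' deposited table.

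Relatives of Noc4l rose with it. Cebpz, Noc2l and Noc3l encode proteins of the same NOC domain family, whose yeast counterparts serve mainly the large subunit. All 3 rose, where 17.1% of tested genes did, by 0.31 ± 0.09, 0.24 ± 0.06 and 0.39 ± 0.09 (log2, SE) per the authors' deposited table. The 0.27 of Noc4l lies among them.

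Proteins that join the processome at the stage of Nop14 rose in 8 of 18 cases and 10 did not pass, with a median of 0.20. The share that rose over all tested genes was 17.1%. The largest were Rrp12, an export and assembly factor, at 0.52 ± 0.08, and Nol6, the counterpart of yeast Utp22, at 0.49 ± 0.09 per the authors' deposited table. Utp14a and Dhx37, an activator and a helicase that release the U3 RNA in yeast, rose by 0.40 ± 0.13 and 0.39 ± 0.10 per the authors' deposited table. The GTPase gene Bms1 rose by 0.35 ± 0.07, while its binding partner Rcl1 was at -0.06 ± 0.08 and did not pass (adjusted p = 0.589) per the authors' deposited table. In the Mpp10 complex, Mphosph10 rose by 0.37 ± 0.10 and Imp4 by 0.25 ± 0.08, and Imp3 was at -0.15 ± 0.11 without passing (adjusted p = 0.299) per the authors' deposited table.

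The scaffold around them moved alike. For comparison with the counts below, 17.1% of all tested genes rose and 15.5% fell. Of 12 genes of the UTP-A and UTP-B complexes, 9 rose and 3 did not pass (median 0.21), led by Heatr1 at 0.56 ± 0.07 and Pwp2 at 0.41 ± 0.08 per the authors' deposited table. Of 5 core proteins of the U3 particle, 4 rose and 1 did not pass (median 0.25), with Rrp9, the protein specific to U3, at 0.45 ± 0.12 per the authors' deposited table. The changes of Nop14 and Noc4l lie inside the range of each of these lists, 0.01 to 0.56 for UTP-A and UTP-B and 0.05 to 0.45 for the U3 core. In all, 32 of the 90 listed genes other than the 4 members rose and 24 fell, the falling ones being ribosomal proteins and Nop10.

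**Figure D5:**
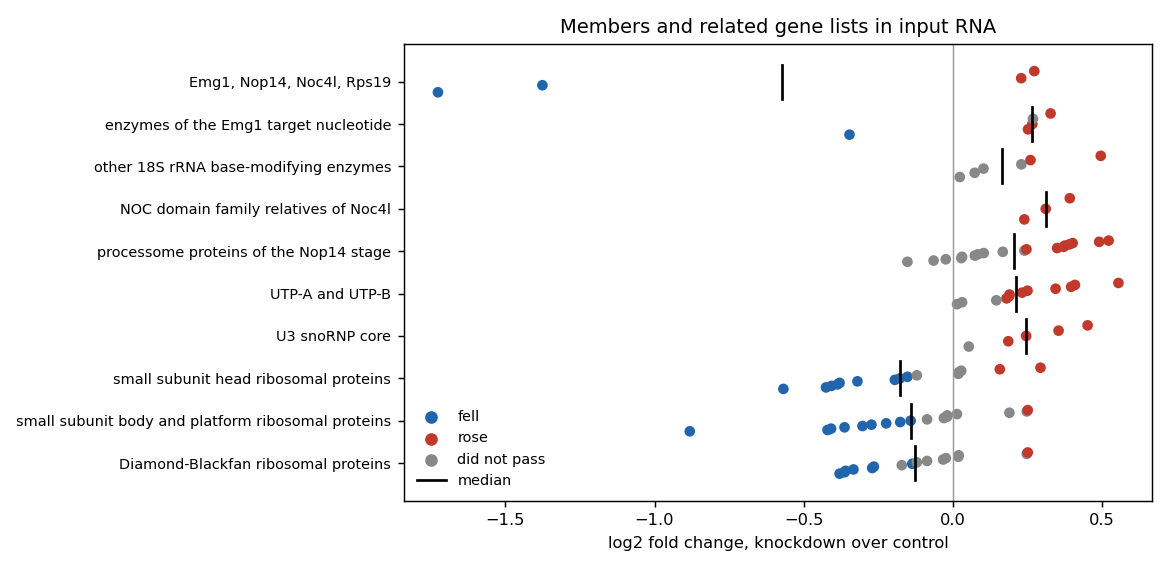
Log2 fold change of each gene of the lists in the input table, 1 point per gene, coloured by its call at an adjusted p under 0.05, with the median of each list as a black line. The assembly lists have medians of 0.17 to 0.31 and the ribosomal protein lists of -0.18 to -0.13, while the 4 members split into 2 at either side. The list for the subunit head includes Rps2, a body protein.

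No differential m6A peak bore the name of a member. Over the genes with an adjusted p, 14.8% carried at least 1. The list holds differential peaks only, so it does not say whether the RNA of Emg1, Nop14, Noc4l or Rps19 carries m6A that did not differ. By position, 1 peak touched a member. It is the peak of Lpcat3 at mm10 chromosome 6, 124704150 to 124704388, on the plus strand, which ends 19 bases inside the span of Emg1. Its fold enrichment of m6A precipitate over input was 3.57, and its log2 change 0.763 at a false discovery rate of 0.0174, per the authors' deposited table. Which condition is the numerator of a peak change is not stated in the file, so a sign is given as deposited and not read as gain or loss.

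The pseudogene Rps19-ps3, in contrast to Rps19, did have a differential peak. It lies on the minus strand at chromosome 4, 147821777 to 147822145, and covers 369 of the 426 bases of the pseudogene. The fold enrichment was 9.87 per the authors' deposited table, against a median of 5.525 over the whole list. Its log2 change was 2.05 at a false discovery rate of 0.00049 per the authors' deposited table, the 14th largest of 991 positive changes. The input RNA of Rps19-ps3 had a log2 change of -1.25, and with no stated numerator the 2 signs cannot be set against each other. No source used here states which libraries enter a peak change. The part in this peak of Rps19 reads placed on the pseudogene was not tested.

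No other small subunit ribosomal protein gene had a differential peak, 0 of 32. Of the 90 listed genes other than the members, 9 (10.0%) had one, beside 14.8% of all tested genes. This share pools unlike lists, since none of the listed ribosomal protein genes had one. The 9 were 2 of 6 in the list of other 18S enzymes and partners, 3 of 3 relatives of Noc4l, 2 of 18 at the Nop14 stage and 2 of 5 in the U3 core. UTP-A and UTP-B had 0 of 12, and the list for the Emg1 nucleotide 0 of 5. Each of the 3 relatives of Noc4l had a peak, although Noc4l itself had none. Cebpz had a change of -0.327 at a fold enrichment of 32.4, Noc2l one of -0.399 at 2.97, and Noc3l one of 0.649 at 12.7 per the authors' deposited table. Their signs thus differed, while the RNA of all 3 rose in input. Rrp9, Bysl, Nop58, Nat10 and Thumpd1 had negative changes of -1.57, -1.23, -0.629, -0.315 and -0.304, and Nol6 a positive one of 0.681, per the authors' deposited table. The peaks on Rrp9 and Bysl, with the largest changes of these, were weakly enriched at 1.63 and 1.92.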

How the data were processed

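Per the submitters' processing notes, reads were handled with Trimmomatic, HISAT2 and DESeq2 and the mm10 build; no source used here names the read counter, annotation, peak caller or versions. In the input table the mean normalized count is a signal, the log2 fold change and its SE are log2 values, the Wald statistic is a score, and the p-value and adjusted p-value are the authors', per the file headers. The deposited statistic equalled the fold change over its SE, and the deposited adjusted p equalled a Benjamini-Hochberg adjustment over the 12807 genes that have one. The 3472 others had means of at most 22.7. In the peak table the fold enrichment is a ratio and the peak change a log2 value deposited by the authors. The log10 false discovery rate is a score column there, and the deposited p-value of the peak was not used. Depth per library is unknown, and precision is that of the SE, with a median of 0.10 at means of at least 100.

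Intervals are the estimate ± 1.96 SE (95%). Levels per condition were computed as stated in the report. A gene passed at an adjusted p of the authors under 0.05. The Wald and Benjamini-Hochberg functions used for the alternatives were run on values simulated with the deposited SE. Because that run takes the SE as correct, it cannot show how sound calls from 2 libraries per group are. The members and lists were chosen with earlier results of these data known, and lists are described by counts and medians with no test. Named were the members, genes of the lists, the 3 closest genes in change, the next genes on either side, small subunit ribosomal protein genes that rose, and genes named after Rps19. Of the listed pathway genes, 4 were matched through older RefSeq symbols, and Rpl26 and 10 cell type markers were not matched. Values of 3 listed genes are not reported here singly. The alternatives were another adjustment, centring, a test against a log2 change of 0.25, a threshold of 0.01, a minimum mean of 100 and matching of peaks by position. The design provided for fitted tables, and no count model was refitted. Scripts ran in Python 3.11.15 with pandas 2.3.3, numpy 2.4.6, matplotlib 3.10.9 and scipy 1.17.1.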

Additional observations from a re-analysis of the deposited data

How the results depend on the processing

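With adjustment over every gene with a p-value, and with centring on the median of genes whose mean reached 100, which was 0.01, each of the 4 members kept its direction and its side of the threshold. Against an absolute log2 change of 0.25, Nop14 at 0.23 and Noc4l at 0.27 did not pass (DESeq2 estimates, adjusted p of 1 for each, against 0.0124 to 0.013 and 0.0179 to 0.0181 under the other alternatives). Emg1 and Rps19 passed there too. A threshold of 0.01 would part the 2 risers: by the authors' DESeq2 Wald test Nop14 (adjusted p = 0.00977) lies just under it and Noc4l (0.0143) over it. Under the other adjustment and the centring, both lie over 0.01. Matching peaks by position in place of name gave 1 peak on the members in place of 0, that of Lpcat3 at the end of Emg1. The counts of rising and falling genes, and of listed genes, stayed within 1.5 times. At a threshold of 0.01, risers fell to 5 of 12 in UTP-A and UTP-B and to 1 of 6 among the other 18S enzymes and partners. Over all 12807 genes with an adjusted p, 1575 rose at that threshold. No paired analysis was possible because neither table holds values per library, and for that reason no replicate was left out either.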
